A study of Mus musculus with 8 samples.

Results

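Atoh1, Pou4f3, Gfi1, Lhx3, Barhl1, Eya1, Sox2, Prox1 and Gata3 encode the transcriptional regulators that found the inner ear, specify its sensory cells and keep them differentiated. They were named as a set of 9 hair cell and otic regulators. All 9 were measured among the 22180 genes of the platform, each represented by the feature that the platform annotation links to its symbol alone. Gata3 has a second such feature, and its brighter one stands for the gene. RNA from the cochlea of 4 miR-183/96 knockout mice and 4 control mice, all at postnatal day 16, was hybridised to Affymetrix Mouse Gene 2.0 ST arrays. Each array holds both cochleae of 1 animal, taken whole within the bony capsule, so bone, marrow, nerve and attached muscle contribute RNA beside the sensory epithelium. The labels call the second group control and the design text calls it wild type; neither strain, sex, allele nor any treatment is given in the sources used here.

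The regulators act in a sequence. EYA1, a transcriptional coactivator with phosphatase activity, and GATA3, a zinc finger factor, act from the otic placode onwards, and SOX2 marks the prosensory cells from which hair cells and supporting cells arise. ATOH1, a basic helix-loop-helix factor, starts hair cell differentiation, after which the POU-domain factor POU4F3, the zinc finger repressor GFI1, the LIM-homeodomain factor LHX3 and the homeodomain factor BARHL1 act in the hair cells themselves. SOX2 and the homeodomain factor PROX1 remain in supporting cells. The microRNAs of the miR-183 cluster are abundant in maturing hair cells, and changes in the seed of miR-96 cause progressive hearing loss in mice and humans.

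The mature sequences of the cluster are shown because the knockout is named after miR-183 and miR-96, which belong to it. They are given 5′ to 3′ from RefSeq with the seed, bases 2 to 8, in capitals. The genes lie on chromosome 6 of GRCm38.p6, on the minus strand, with mature miR-183-5p at chr6:30169711-30169732, miR-96-5p at chr6:30169506-30169528 and miR-182-5p at chr6:30165962-30165986.
mmu-miR-183-5p: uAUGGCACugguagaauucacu
mmu-miR-96-5p: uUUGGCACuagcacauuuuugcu
mmu-miR-182-5p: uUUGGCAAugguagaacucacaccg
The seeds of miR-96 and miR-182 share bases 2 to 7, UUGGCA, and that of miR-183 starts with AUGGCA. The labels name Mir183 and Mir96 as knocked out and do not name Mir182.

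The genes of the cluster were read first. Mir96 was at 4.21 ± 0.13 in knockout and 5.69 ± 0.40 in control arrays (log2 RMA value, SD, n = 4 animals each), a difference of -1.48 (limma adjusted p = 0.00932). Mir183 differed by -0.33 (limma adjusted p = 0.398) and Mir182 by 0.35 (limma adjusted p = 0.364), on dim features at percentiles 3.51 and 12.6 of those tested. The Mir96 call was lost without control replicate 1 (limma adjusted p = 0.0677) and over the whole value table (0.184). Over all features the arrays correlated at 0.947 to 0.976. The spread of log2 values within an array (its SD, called signal range here) was 1.37 to 1.44 in knockout and 1.41 to 1.56 in control arrays.

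None of the 9 regulators passed the test. In the fit over all 23521 features with 1 symbol (limma, Benjamini-Hochberg adjusted p below 0.05), 0 of 9 were called, where 0.0128% of all tested features were. At an unadjusted p below 0.05 there was 1 of 9, Eya1, where 14.3% of all tested features met that level. The differences, all knockout minus control on the log2 scale, ran from -0.24 (Eya1) to 0.19 (Gata3). Of the 9, 5 were negative and 4 positive, with a median of -0.02 beside a median of 0.01 over all tested features. In 2 of 9, Pou4f3 and Eya1, every knockout value lay below every control value; the groups failed to overlap in 5.96% of all tested features, and in that direction in 2.65%. Likewise 0 of 9 passed in each of 20 other settings of the analysis, in which the lowest adjusted p of any of them was 0.207; the setting with a level minimum of 5 tested only 5 of the 9.

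**Figure D1:**
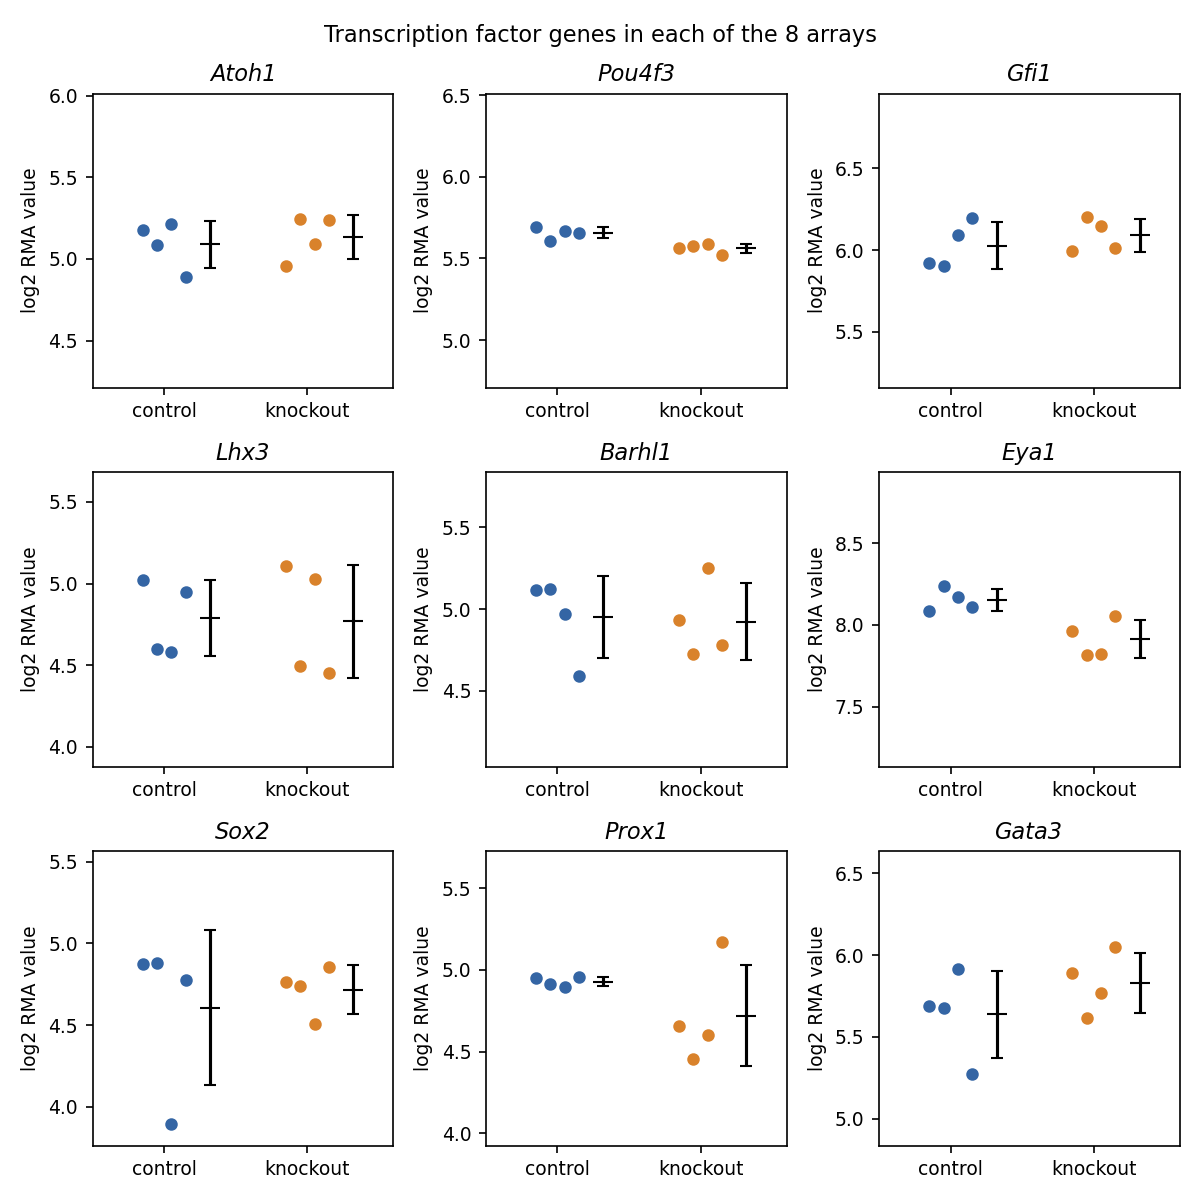
Log2 RMA values (vertical axes, each spanning the same range in log2 units around the gene's mean) of the 9 regulators in 4 control and 4 knockout arrays, in replicate order from left to right. Points are animals, and the bar beside each group is the mean ± SD. The groups are separate in Pou4f3 and Eya1 and overlap in the other 7 genes, and Sox2 has 1 low control value of 3.90.

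How bright these features are limits what can be read from them. The 1394 olfactory and vomeronasal receptor genes, which the cochlea is not known to use, had a median level of 3.21 and a 95th percentile of 5.50. Eya1 (mean 8.03 over the 8 arrays), Gfi1 (6.06), Gata3 (5.73) and Pou4f3 (5.61) lay above that 95th percentile. They stood at percentiles 99.9, 98.3, 97.1 and 95.7 of the receptor genes, so Pou4f3 passed the 95th percentile only narrowly. Atoh1 (5.11), Barhl1 (4.94), Prox1 (4.82), Lhx3 (4.78) and Sox2 (4.66) lay below it, at percentiles 83.2 to 90.0 of the receptor genes. For these 5 genes the level alone does not show that the transcript was detected. Features differ in their probes, so levels do not rank transcripts against each other. Because the whole cochlea was used, fewer cells of a type and less RNA per cell cannot be told apart in any of these values.

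Atoh1 is the factor that starts hair cell fate and is switched down after hair cells have formed. Its feature read 4.96, 5.25, 5.09 and 5.24 in knockout replicates 1 to 4 and 5.17, 5.08, 5.21 and 4.89 in control replicates 1 to 4. The groups overlapped almost fully, with the single lowest value in control replicate 4. The difference was 0.04 (95% interval -0.22 to 0.30, limma adjusted p = 0.875), and it was -0.03 after cyclic loess normalization, which removes a dependence of differences on level. The interval corresponds to a knockout level of 0.861 to 1.23 times control.

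Pou4f3 is required for hair cell survival and maintains the expression of other hair cell factors, Gfi1 and Lhx3 among them. It read 5.56, 5.57, 5.59 and 5.52 in the knockout and 5.69, 5.61, 5.67 and 5.66 in the control animals. All 4 knockout values were lower, by a small margin. The difference was -0.10 (SE 0.10, 95% interval -0.31 to 0.12, limma adjusted p = 0.647), and the interval spans 0.808 to 1.09 times the control level. Its within-group SD was 0.03, at percentile 0.0425 of features in the same decile of levels, whose median SD was 0.17. limma draws a spread that small toward that of other features of its level, so its standard error is larger than the spread of these 8 values alone. The difference was -0.11 after cyclic loess and stayed between -0.11 and -0.08 when each array was left out in turn.

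Gfi1, which represses neuronal genes in hair cells and is also used by granulocyte precursors of the marrow, read 5.99, 6.20, 6.15 and 6.02 in knockout and 5.92, 5.90, 6.09 and 6.20 in control arrays. The groups overlapped, and the highest values of both were equal to 2 decimals. The difference was 0.06 (95% interval -0.18 to 0.30, limma adjusted p = 0.799), and 0.02 to 0.12 when single arrays were omitted. Granulocyte genes were bright in the same arrays. All 16 of 16 markers were measured, at percentile 79.3 of levels or above, and their mean level was 8.28 to 8.46 in knockout and 8.10 to 8.64 in control animals. The 2 arrays with the highest Gfi1 values, knockout replicate 2 and control replicate 4, also had the 2 highest granulocyte levels, 8.46 and 8.64, while control replicate 3 had the lowest, 8.10, at a Gfi1 value of 6.09. The part of marrow RNA in the Gfi1 values was not tested.

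Neuronal genes that GFI1 represses in hair cells were read beside it. Of 15 such genes, reported higher on its loss, 0 passed in either direction, 11 had negative and 4 positive differences, and the median was -0.18. The lowest p in that list belonged to the neurofilament genes Nefl (-0.91) and Nefm (-0.73) and the stathmin genes Stmn3 (-0.41) and Stmn2 (-0.38). Their limma adjusted p ran from 0.226 to 0.305. Spiral ganglion neurons express these genes too, so the whole cochlea does not report their level in hair cells. The ganglion neuron markers, 18 of 20 measured, had a mean level of 5.54 to 5.80 in knockout and 5.83 to 6.13 in control animals, with 1 called, the synaptic gene Snap25 (-1.09, limma adjusted p = 0.0389), and Calb1 at -1.08. The Snap25 call was lost in 14 of 20 other settings (limma adjusted p of 0.0520 to 0.564). Among these were cyclic loess (-0.87, limma adjusted p = 0.219), the whole value table (0.184), the muscle covariate (0.564), signal range (0.489) and the replicate block (0.240), and the omission of any 1 array other than the replicates numbered 3 (0.0590 to 0.183). Nefl and Nefm are in both lists, and the part of the neurons in the Gfi1-repressed list was not tested.

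Lhx3, a hair cell factor downstream of Pou4f3, read 5.11, 4.49, 5.03 and 4.45 in knockout and 5.02, 4.60, 4.58 and 4.95 in control arrays. In each group 2 arrays were near 5 and the other 2 near 4.5, and this division did not follow genotype. The difference was -0.02 (95% interval -0.39 to 0.35, limma adjusted p = 0.962), so a level of 0.763 to 1.28 times control lies within the interval.

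Barhl1, needed for the long-term survival of hair cells, read 4.93, 4.72, 5.25 and 4.78 in knockout and 5.12, 5.12, 4.97 and 4.59 in control arrays. The extremes were 1 animal of each genotype, knockout replicate 3 at the top and control replicate 4 at the bottom. The difference was -0.03 (95% interval -0.36 to 0.30, limma adjusted p = 0.941). Both dim hair cell factors moved to -0.13 (Lhx3) and -0.12 (Barhl1) after cyclic loess, where they also did not pass.

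Eya1 had the brightest feature of the 9, at percentile 97.2 of tested features, and the lowest p. It read 7.96, 7.81, 7.82 and 8.05 in knockout and 8.08, 8.24, 8.17 and 8.11 in control arrays. Every knockout value was under every control value, the nearest pair being knockout replicate 4 and control replicate 1. The difference was -0.24 (SE 0.10, 95% interval -0.45 to -0.02, limma adjusted p = 0.322). Differences in this series followed the level of the feature, and in the brightest decile, which holds Eya1, the median difference was -0.21. After cyclic loess Eya1 differed by -0.02 (limma adjusted p = 0.964). Eya1 is also expressed in skeletal muscle, whose 17 of 17 measured markers all had negative differences, with a mean level of 5.52 to 6.61 in knockout and 6.44 to 8.31 in control animals. With that level as a covariate Eya1 differed by -0.21 (limma adjusted p = 0.696). The 2 extreme arrays for muscle, knockout replicate 1 and control replicate 2, were the second-highest knockout value and the highest control value for Eya1.

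Gata3, which is used by the otic prosensory epithelium and spiral ganglion and also by T lymphocytes, read 5.89, 5.62, 5.77 and 6.05 in knockout and 5.69, 5.68, 5.91 and 5.27 in control arrays. The groups overlapped, and control replicate 4 stood lowest. The difference was 0.19 (95% interval -0.12 to 0.51, limma adjusted p = 0.525), on the brighter of its features. Omitting control replicate 4 gave 0.07, omitting knockout replicate 4 gave 0.12, and omitting control replicate 3 gave 0.29. The second feature of Gata3 read 5.74, 5.33, 5.54 and 5.68 in knockout and 5.37, 5.37, 5.06 and 5.10 in control arrays. There 3 of 4 knockout values lay above all control values. The difference was 0.35 (SE 0.13, 95% interval 0.08 to 0.63, limma adjusted p = 0.305). This second feature had a mean level of 5.40 over the 8 arrays, below the 95th percentile of the receptor genes, 5.50. Those receptor genes had a median difference of 0.19. The third feature, which the annotation shares between Gata3 and 2 uncharacterised transcripts and which was not tested, read 4.47 to 4.88 in knockout and 4.30 to 4.75 in control arrays. Control replicate 3 was the highest control value on the first feature and the lowest on the second. Over the 8 arrays these 2 features correlated at a Pearson r of 0.574, and both differences were positive. Lymphoid markers, 15 of 18 measured and drawn from the T and B lineages, had a mean level of 6.13 to 6.40 in knockout and 6.36 to 6.57 in control arrays and a median difference of -0.30 with 0 called. The T cell receptor complex genes and Cd4 were at 0.13 (Cd3d), 0.04 (Cd3e), 0.25 (Cd3g) and 0.06 (Cd4) and Cd8a was at -0.23, so the negative median came mainly from B lineage genes and from Il7r (-0.51) and Rag2 (-0.35). These members were picked out after their values were seen, and the part of lymphoid RNA in the Gata3 values was not tested.

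Sox2, the prosensory factor kept by supporting cells and glia, read 4.77, 4.74, 4.50 and 4.86 in knockout arrays and 4.88, 4.88, 3.90 and 4.78 in control arrays. Control replicate 3 lay far below the other 7 arrays, which ran from 4.50 to 4.88. The difference was 0.11 (95% interval -0.31 to 0.53, limma adjusted p = 0.800). It was -0.13 without control replicate 3 (limma adjusted p = 0.543) and -0.0039 after cyclic loess, so no direction holds for Sox2. Supporting cell markers, 22 of 23 measured, had a mean level of 5.87 to 6.12 in knockout and 6.02 to 6.18 in control arrays. Of these 0 were called, and control replicate 3 had the lowest control value, 6.02. Knockout replicates 2, 3 and 4 were lower still, at 5.91, 5.87 and 5.97, with Sox2 at 4.74, 4.50 and 4.86. Schwann and satellite cell markers, 10 of 13 measured, read 6.19 to 6.47 in knockout and 6.41 to 6.69 in control arrays. Control replicate 3 was again lowest among controls, at 6.41, but the lowest level of all, 6.19, was in knockout replicate 2. The part of these cells in the Sox2 values was not tested.

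Prox1, a factor of pillar and Deiters' cells that lymphatic endothelium also requires, read 4.65, 4.46, 4.60 and 5.17 in knockout arrays and 4.95, 4.91, 4.89 and 4.95 in control arrays. Knockout replicates 1 to 3 lay below every control, and knockout replicate 4 lay above all of them. The difference was -0.21 (95% interval -0.52 to 0.11, limma adjusted p = 0.498). Without knockout replicate 4 it was -0.36 and without knockout replicate 2 it was -0.12, and it was -0.31 after cyclic loess (limma adjusted p = 0.506). Among the 9, only Prox1 lay outside the range between the 5th and 95th percentiles of the differences of features of its level. It did so narrowly, at -0.209 against a 5th percentile of -0.199 and a median of 0.08. By definition that range leaves out 5% of features on each side, so 1 of 9 is near the share of all features. Lymphatic endothelial markers, 7 of 8 measured, read 6.05 to 6.12 in knockout and 6.08 to 6.15 in control arrays, with 0 called and a median difference of 0.01.

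**Figure D2:**
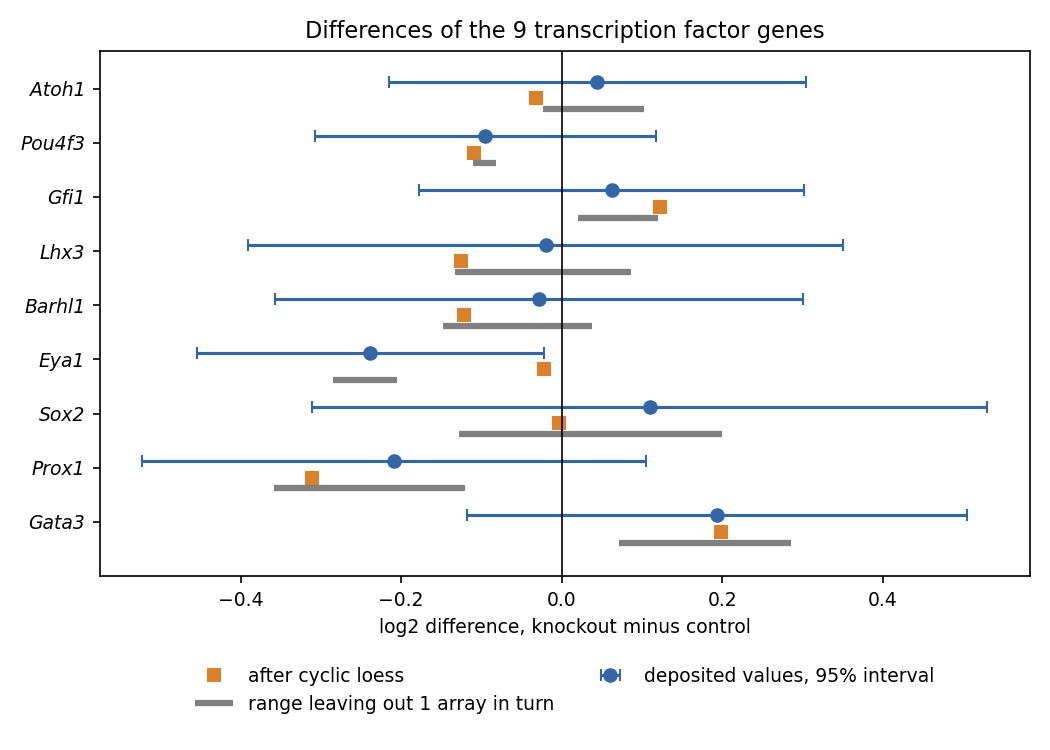
Log2 difference between knockout and control (horizontal axis) for each of the 9 regulators, with the limma 95% interval of the deposited values, the value after cyclic loess and the range on leaving out 1 array in turn. All intervals but that of Eya1 include 0, and the cyclic loess value of Eya1, -0.02, lies near 0.

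**Figure D3:**
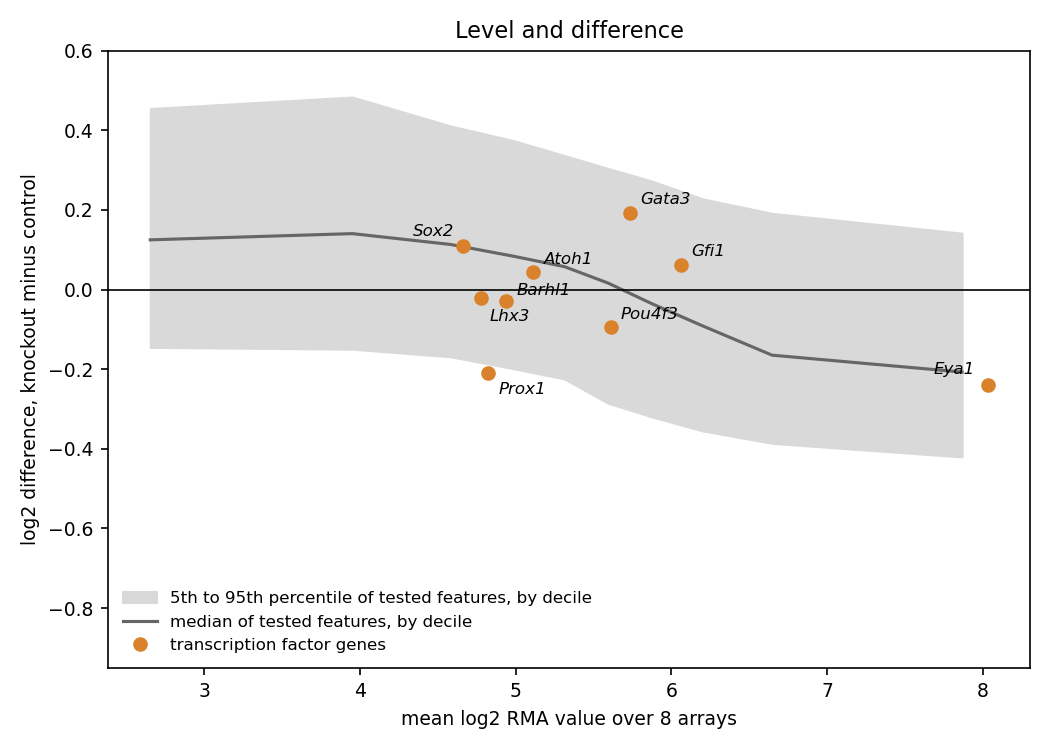
Log2 difference (vertical axis) against mean log2 level over the 8 arrays (horizontal axis) for the 9 regulators, over the median and the 5th to 95th percentile of all tested features in each decile of levels. The median of all features goes from 0.13 in the dimmest decile to -0.21 in the brightest, Eya1 lies near that line and Prox1 lies at the lower edge.

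The spread between animals differed among the 9. The within-group SD was 0.03 in Pou4f3, 0.10 in Eya1, 0.12 in Gfi1 and 0.14 in Atoh1, each below the median of features of its level. It was 0.22 in Prox1, 0.23 in Gata3, 0.24 in Barhl1, 0.29 in Lhx3 and 0.35 in Sox2, each above it. The regulators with wide spread thus had wider intervals, reaching up to 1.44 times control for Sox2 and down to 0.696 times control for Prox1. The narrower interval of Eya1, which lay below 0, still reached down to 0.730 times control. Knockout replicate 4 was the highest knockout array for Eya1, Sox2, Prox1 and Gata3 and the lowest for Pou4f3 and Lhx3, so the 9 genes did not rise and fall together over the animals.

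The closest relatives of the 9 factors, 23 of 24 measured, also had 0 called, with 8 negative and 15 positive differences and a median of 0.12. Barhl2, the paralog of Barhl1, read 5.48 ± 0.08 in knockout and 5.11 ± 0.17 in control arrays (SD, n = 4 animals each, limma adjusted p = 0.301), with no overlap between groups. Sox1, of the SOXB1 group with Sox2, was at 0.39 (limma adjusted p = 0.301), and the LIM-homeodomain gene Lhx2 at 0.25 (adjusted p = 0.319). Eya4, mutated in a progressive human hearing loss, was at -0.26 (limma adjusted p = 0.378) and at -0.06 after cyclic loess. Of these 23 genes, 3 had groups that did not overlap, Barhl2, Lhx2 and Sox3, each higher in knockout, where 3.3% of all tested features were. The receptor reference genes, which are dim, had a median difference of 0.19, and 17 genes of other tissues one of 0.09. After cyclic loess the paralogs named here as higher read 0.32 (Barhl2), 0.32 (Sox1), 0.26 (Lhx2) and 0.18 (Sox3). Their deposited differences were 0.37, 0.39, 0.25 and 0.20. The median of all 23 went from 0.12 to 0.06 after cyclic loess, with 0 called.

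Other otic and hair cell regulators, 49 of 52 measured, had 0 called, with 24 negative and 25 positive differences and a median of 0.0034. The 8 with the lowest p were Id3 (-0.37), Tcf3 (-0.29), Id2 (-0.25) and Rfx7 (-0.24) on the lower side, and Lmx1b (0.31), Dlx3 (0.24), Otx1 (0.24) and Hey2 (0.23) on the higher, with limma adjusted p of 0.305 to 0.438. ID2 and ID3 are inhibitors that bind the E-protein partners of ATOH1, and Tcf3 encodes such a partner. All 3 were bright, and after cyclic loess they read -0.04 (Id2), -0.18 (Id3) and -0.07 (Tcf3), with Rfx7 at -0.14. The 4 on the higher side read 0.40 (Lmx1b), 0.34 (Otx1), 0.29 (Dlx3) and 0.20 (Hey2) after cyclic loess. The Notch effector genes that restrain Atoh1 in supporting cells were measured in the same list, with Hes1 at 0.09, Hes5 at -0.15, Hey1 at -0.18 and Heyl at -0.01. Ikzf2, a regulator of outer hair cell maturation, was at -0.07, Insm1, which acts in embryonic outer hair cells, at 0.07, Rfx3 at -0.06 and Rorb at -0.09. Pou3f4, a mesenchymal otic factor, was at -0.10, and Pax2, an otic placode factor, at 0.01.

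Genes that carry out hair cell functions were read next. Of 31 such genes 29 were measured. At the adjusted threshold 1 was called lower and 0 higher, where 0.0128% of all tested features were called. Differences were negative in 12 and positive in 17, with a median of 0.02. Calb2, the calcium buffer calretinin, which spiral ganglion neurons also express, fell from 7.55 ± 0.20 to 5.96 ± 0.26 (SD, n = 4 animals each, limma adjusted p = 0.000752), with a call in every setting but signal range as a covariate (-1.48, limma adjusted p = 0.0506). The next were Pcp4 (-1.04, limma adjusted p = 0.212), the motor protein gene Myo6 (-0.53, adjusted p = 0.301), Pvalb (-0.96), Smpx (-0.36), Otoa (-0.17), which nonsensory cells express too, the actin bundling gene Espn (0.22) and the Notch ligand gene Dll1 (0.22), none of which passed. Myo7a was at 0.04, the otoferlin gene Otof at -0.03 and the prestin gene Slc26a5 at 0.02, beside -0.10 for Pou4f3. Myo7a, Otof and Slc26a5 were picked after values were seen and do not stand for the list. Lower in the same list were Xirp2 at -0.48, Rbm24 at -0.22 and Ocm at -0.14. Pvalb and Smpx are muscle genes too. The ganglion neuron list level given above was also lower in knockout arrays, by a narrow margin (at most 5.80, against at least 5.83 in control arrays). The part of the neurons in the Calb2 value was not tested. Mean levels were 5.94 for Myo7a, 5.57 for Otof and 4.54 for Slc26a5, so the last, like the dim regulators, lay within the range of the receptor reference genes. The mean level of the hair cell list was 5.37 to 5.54 in knockout and 5.52 to 5.66 in control arrays. Whether the difference in Calb2 differs from that in any of the 9 regulators was not tested.

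**Figure D4:**
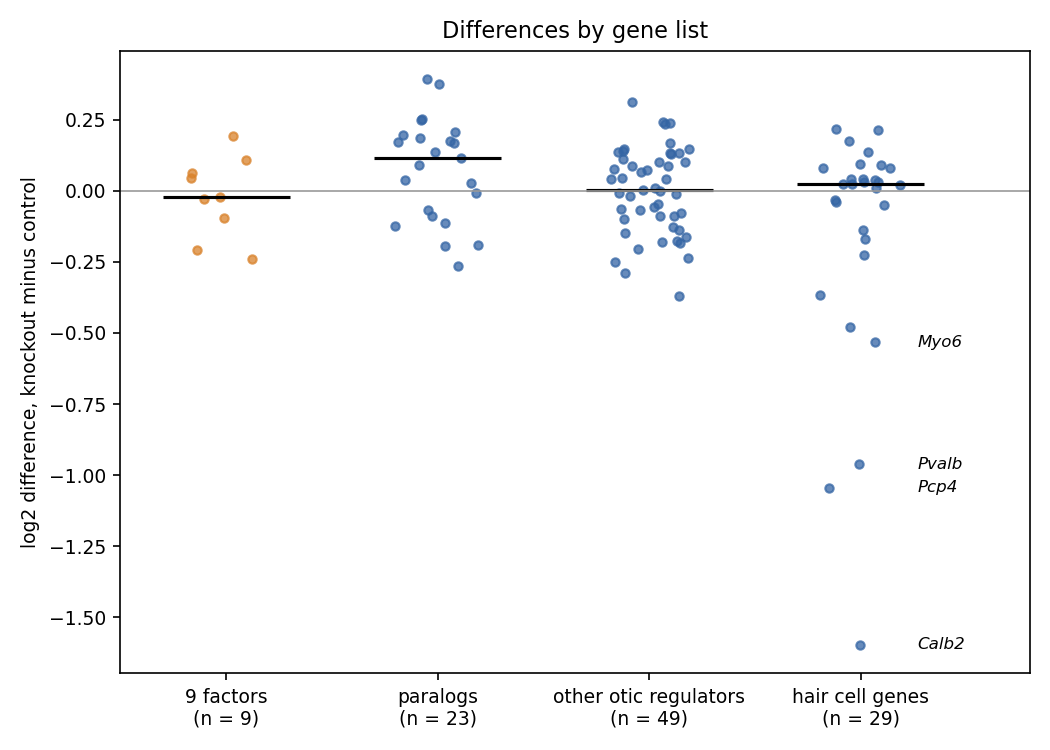
Log2 differences (vertical axis) of single genes in 4 lists (horizontal axis): the 9 regulators, 23 paralogs, 49 other otic regulators and 29 hair cell genes, with a line at each median. The regulators and their relatives lie between -0.37 and 0.39, while Calb2, Pcp4, Pvalb and Myo6 lie at -0.53 or below.

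Markers of the other cell types in the sample were read for the same comparison, and apart from Snap25 none passed. The 4 lowest p among the granulocyte genes were those of S100a9 (0.35), S100a8 (0.27), Retnlg (0.22) and Prtn3 (-0.39). Among supporting cell genes they were those of Fbxo2 (-0.42), Gjb6 (-0.35), Otogl (-0.31) and Slc1a3 (-0.29), and among glial genes those of Mal (-0.57), Ugt8a (-0.44), Mag (-0.35) and Ncmap (0.28). In muscle they were Myh4 (-1.67), Mylpf (-1.30), Pvalb (-0.96) and Actn3 (-0.90), in lymphoid cells Pax5 (-0.52), Cd79b (-0.44), Cd79a (-0.39) and Igll1 (-0.30), and in lymphatic endothelium Reln (-0.32), Nr2f2 (0.14), Lyve1 (0.13) and Flt4 (-0.10). Of the genes of other tissues, Zp2 was at 0.38, Ins2 at -0.26, Gcg at 0.23 and Pomc at 0.19. Granulocyte, muscle and glial lists had medians of 0.03, -0.72 and -0.21, and the supporting cell and ganglion neuron lists -0.15 and -0.18.

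The genes whose values followed each regulator most closely were taken from the 14525 genes with a mean level of at least 5, by Pearson r over the 8 arrays. They were Kndc1 and Pald1 for Atoh1, Smarcd2 and Zbtb38 for Pou4f3, Acss2 and Tmem159 for Gfi1, Fam189b and Man1b1 for Lhx3, and Obsl1 and Ncan for Barhl1. For Eya1 they were Dubr and Alg10b, for Sox2 Ikzf5 and Sertad1, for Prox1 Fbxo36 and Lrrk1, and for Gata3 Popdc3 and Sprr1b. The coefficients ran from 0.923 to 0.979. They are descriptions chosen as the highest of many over 8 arrays that share their normalization, and those for Sox2 rest on control replicate 3, where both Ikzf5 (5.96) and Sertad1 (5.41) had their lowest value.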

How the data were processed

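The authors deposited gene-level log2 values, computed by RMA (background correction, quantile normalization, median-polish summary) in Affymetrix Expression Console, as the labels and the submitters' processing notes state; that the scale is log2 follows from their range. Neither the software version, nor the annotation release, nor any scan batch is given in the sources used here. No detection call was used, and the number of arrays limits precision.

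Of 41345 features, 23521 had 1 symbol, 1814 several and 16010 none; only those of 1 symbol, for 22180 genes, entered the tests. All 9 regulators matched the RefSeq table by identifier. Knockout and control (4 arrays each) were compared in limma 3.58.1 under R 4.3.3 (lmFit, eBayes with intensity trend, genotype as the only term), with Benjamini-Hochberg adjustment over all tested features and a threshold of 0.05; intervals are 95% and not adjusted. The step was tested on simulated data.

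The regulators and the 13 other lists were chosen with earlier results of these data known, so lists were described by counts and medians without a list test. All 9 regulators are named. So are, per list, the genes past the threshold and the 4 with the lowest p (8 for otic regulators and hair cell genes). Per regulator the 2 genes with the highest r are named. Notch, Ikzf2, Insm1, Rfx3, Rorb, Pou3f4, Pax2, Sox3, Myo7a, Otof and Slc26a5 values were added by function or group separation after values were seen. Xirp2, Rbm24 and Ocm were added by the size of their difference. The alternatives were eBayes with robust variance or with no trend, other feature sets, median-centring, quantile and cyclic loess normalization, array weights, the replicate number as a block, muscle level or signal range as a covariate, the mean of the features of a gene, and leaving out each array.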

Additional observations from a re-analysis of the deposited data

Results flagged for a closer look

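Sox2 in control replicate 3 was singled out because it lay far from the other 3 control arrays. It read 3.90 there and 4.78 to 4.88 in control replicates 1, 2 and 4, so that the gap to the nearest control made up 0.898 of the whole control range. With 9 genes in 2 groups examined, chance would flag about 1 in 20 groups.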

How the results depend on the processing

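In 20 alternatives, 8 of which left out 1 array each, 0 of 9 regulators passed. Differences below 0 in knockout for Pou4f3, Eya1 and Prox1 and above 0 for Gfi1 kept their sign in every alternative that tested them. Atoh1 turned to -0.0320 after repeated quantile normalization, to -0.0323 after cyclic loess, and to -0.10 with signal range as a covariate. Sox2 turned to -0.0039 after cyclic loess and -0.0051 with array weights. Barhl1 turned to 0.0302 with the muscle level as a covariate, and with signal range as a covariate Lhx3 turned to 0.0907 and Gata3 to -0.20. Signal range was itself mostly lower in knockout arrays, so that covariate overlaps with genotype. Leaving out 1 array gave -0.0229 to 0.10 for Atoh1 (below 0 without control replicate 4), -0.13 to 0.0862 for Lhx3 (above 0 when knockout replicates 2 and 4 or control replicates 1 and 4 were each omitted), -0.15 to 0.0377 for Barhl1 (above 0 when knockout replicates 2 and 4 or control replicates 1 and 2 were each omitted) and -0.13 to 0.20 for Sox2 (below 0 without control replicate 3). The median of the 9 was 0.0443 with a level minimum of 5, which removes Lhx3, Barhl1, Sox2 and Prox1, 0.0302 with the muscle covariate, -0.10 with signal range, and -0.10 to 0.0274 on leaving out 1 array. Over all features, 3 were called, none of them a regulator. That count was 1 over the whole value table, 1 with signal range, 8 with array weights, and 1 to 21 on leaving out 1 array, with 1 without control replicate 1 and 21 without control replicate 3. Genes called in the other lists numbered 3, and 2 after cyclic loess. Animals with the same replicate number did not all deviate together (correlations -0.289 to 0.215). The labels do not say whether the numbers pair animals, and with 4 arrays per group these correlations cannot decide it. With the replicate block 0 regulators and 3 features passed, Snap25 (limma adjusted p = 0.240) no longer among them. Where not stated, the cause of a change was not tested. Dim features limit Atoh1, Barhl1, Prox1, Lhx3 and Sox2 most.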
